A study of Mus musculus with 9 samples.

Results

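The collagen genes are described here in fetal mouse ovaries that were cultured with BMP2, with oestradiol or with neither. Members were all rows of the count tables whose symbol reads Col, a number, a and a number, which took 44 of 23420 genes. The ovaries came from wild-type CD1 mouse embryos on embryonic day 16 and were all cultured for 24 hours on porous inserts in phenol red-free medium. They received vehicle, recombinant human BMP2 at 50 ng/ml, a ligand of the TGFβ family, or estradiol-17β (E2) at 3.67 µM, with 3 RNA libraries for every group and 9 altogether. Treatment was read from the prefixes of the sample titles, with B2 taken as BMP2 and C as vehicle. The labels do not say how many ovaries went into a library or whether libraries came from separate cultures, so p-values measure the spread between these libraries, which may be technical.

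A collagen is built from chains that wind around each other in a triple helix, and the chains of a type are often encoded by separate genes. Fibrillar collagens form the cable-like fibrils of stroma, type IV collagen forms the sheet of basement membranes, and type VI forms beaded filaments between them. Fibril-associated collagens with interrupted helices (FACITs) sit on the surface of fibrils, short-chain collagens form hexagonal networks, and transmembrane collagens are anchored in the cell surface. In the fetal ovary, basement membranes surround the ovigerous cords, which hold oocytes and pregranulosa cells, and fibrillar collagen lies in the stroma between cords. Of the 44 genes, 11 were fibrillar, 6 were type IV, 3 belonged to the basement membrane zone (Col15a1, Col18a1 and Col7a1), 3 were short-chain network genes and 6 were type VI. The other 15 were 9 FACITs, 4 transmembrane collagens, and Col26a1 and Col28a1, which were kept apart as other collagens.

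All 44 genes had counts in every library and all passed the filter on low counts. Their counts made up 0.591% to 0.603% of all gene counts with vehicle, 0.606% to 0.622% in BMP2 libraries and 0.539% to 0.556% in E2 libraries, and the groups did not overlap. These libraries held 30418674 to 34320077 gene counts. Without Col3a1, the most abundant member, the means were 0.403% with vehicle, 0.407% with BMP2 and 0.395% with E2. Fibrillar chains took 53.9% to 54.1% of collagen counts with vehicle, 54.8% to 55.0% in BMP2 libraries and 49.9% to 50.0% in E2 libraries. The share of type VI moved the other way, at 15.9% to 16.2% with vehicle, 15.1% to 15.2% in BMP2 libraries and 17.8% to 17.9% in E2 libraries. The share of type IV was 15.4% to 15.8%, 15.9% to 16.1% and 16.6% to 16.8% in the same order, and that of FACITs 9.64% to 9.70%, 9.17% to 9.50% and 10.6% to 10.8%. These are shares of a total that was itself lower with E2. In summed CPM (a library-size-scaled count), fibrillar chains stood at 3192 to 3259 with vehicle and 2699 to 2789 with E2. The type VI sums were 938.6 to 980.2 with vehicle and 964 to 999 with E2, and these overlapped. Type IV sums also overlapped, at 928.2 to 935.6 with vehicle and 897.9 to 935 with E2. Those of FACITs were 570.7 to 585.1 with vehicle and 585.6 to 589.6 with E2. In BMP2 libraries, fibrillar sums were 3311 to 3397 and type IV sums 964.3 to 996.6, all above those of vehicle and E2 libraries. So type IV was highest with BMP2 in sum but with E2 in share. The type VI sums of BMP2 libraries, 917.1 to 935.5, lay below all others. Their FACIT sums, 566.7 to 574, overlapped with vehicle and lay below those of E2 libraries.

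Levels between genes were compared as CPM (a library-size-scaled count, with TMM factors) per kilobase of exon. With vehicle, Col3a1 stood at 345.6 CPM per kb, followed by Col6a1 (93.5 CPM per kb), Col1a2 (73.1), Col6a2 (60.0), Col1a1 (58.5), Col4a1 (58.3), Col5a2 (42.6), Col4a5 (40.0) and Col4a2 (36.6). Of these neighbours, Col6a2, Col1a1 and Col4a1 lay close together, and their order depends on the exon lengths of the annotation used. At the low end, Col10a1, a collagen of hypertrophic cartilage, had 0.0495 CPM per kb and counts of 2 to 14 per library, and Col9a1 had 0.0551 CPM per kb. Col2a1, the main fibrillar collagen of cartilage, was also low, at 0.487 CPM per kb.

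**Figure D1:**
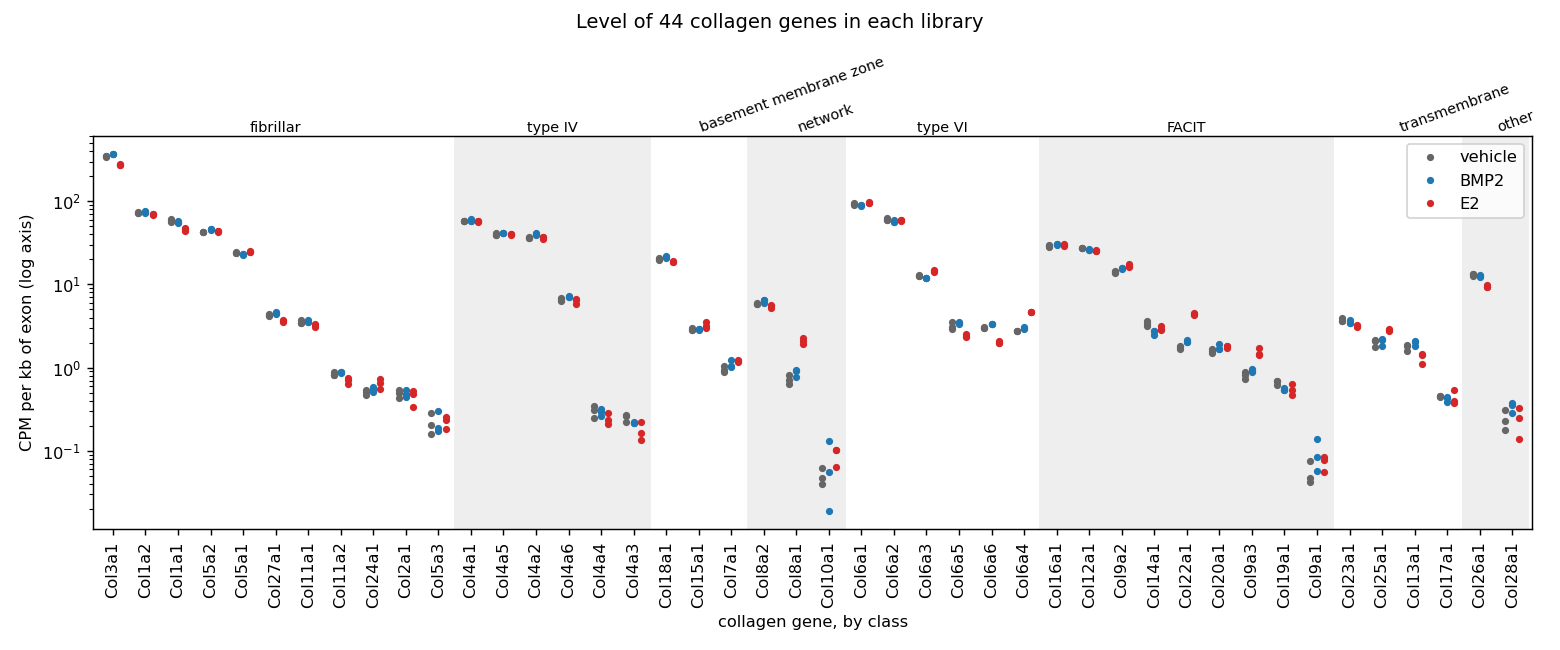
Level of each of the 44 collagen genes in CPM per kilobase of exon on a log axis, ordered within class by the level with vehicle; each point is 1 library, coloured by group. Col3a1 lies above all other genes at 345.6 CPM per kb with vehicle, and most genes keep nearly the same level in all groups.

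Tests were made with edgeR's quasi-likelihood F test over all 16360 genes that passed the filter, with p-values adjusted by the Benjamini-Hochberg method over all of them, and genes with an adjusted p under 0.05 are said to have passed or to be called. Log2 fold changes in parentheses carry their standard error after the ± sign. With BMP2, 6 collagen genes rose, 6 fell and 32 did not pass, so that 27.3% were called, against 13.7% of all genes tested, of which 6.84% rose and 6.85% fell. With E2, 11 rose, 14 fell and 19 did not pass, or 56.8% against 32.3% of all genes tested, of which 15.8% rose and 16.5% fell. The median log2 fold change was 0.058 for BMP2 and -0.030 for E2 over the collagen genes, and -0.002 and -0.003 over all genes. Called changes by more than 1.2-fold numbered 1 of 44 with BMP2 (0 higher and 1 lower), or 2.27% against 2.85% of all genes tested, a share near the background. With E2 there were 14 (7 higher and 7 lower), or 31.8% against 11.8%. The count that fell with BMP2 rested in part on 1 library, since 3 rather than 6 fell without vehicle replicate 2. The comparisons with vehicle share their vehicle libraries. Counts by class below are to be read against the 13.7% of all genes tested with BMP2 and the 32.3% with E2.

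**Figure D2:**
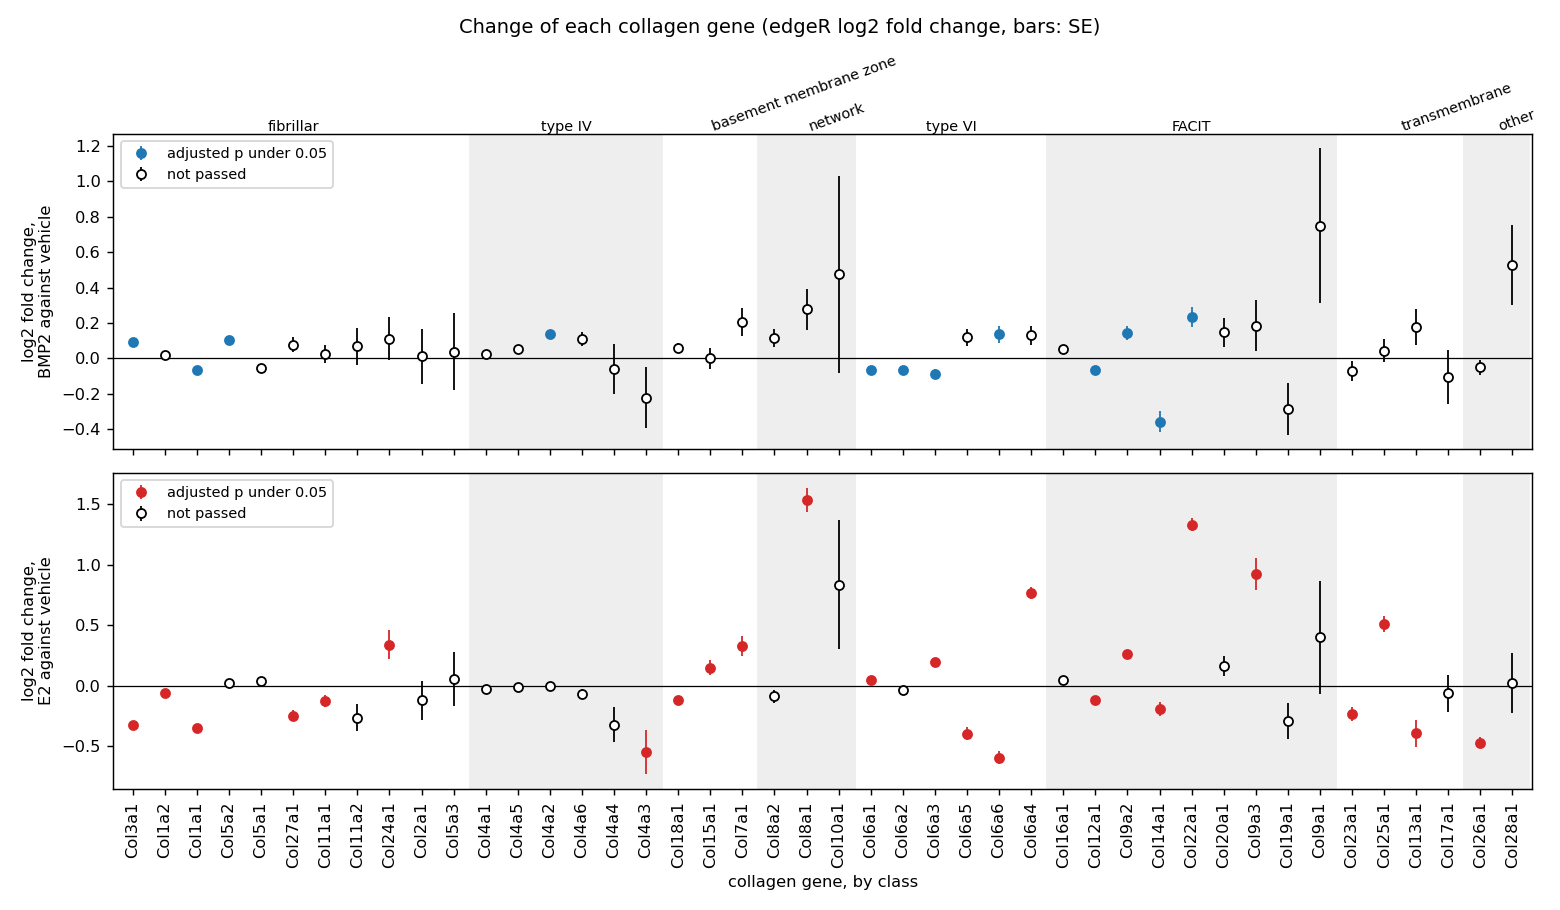
Log2 fold change of each collagen gene with its standard error, for BMP2 against vehicle (top) and E2 against vehicle (bottom); filled points are called at an adjusted p under 0.05 and the 2 vertical axes have different ranges. With E2, Col8a1 and Col22a1 are the highest points, and the genes of 1 class lie on both sides of 0.

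Marker genes of cells that the ovary could hold are given beside the collagens. Their counts are to be read against the 13.7% of all genes tested that were called with BMP2. With E2 this share was 32.3%, with 15.8% higher and 16.5% lower. Of the genes tested, 22.2% of pericyte and smooth muscle, 28.6% of mesonephric and 37.5% of neuron and glia genes were called with E2, below or near it. Pregranulosa genes (10 genes) summed to 1953 to 2006 CPM with vehicle, 1980 to 2002 in BMP2 libraries and 1769 to 1786 in E2 libraries. Of 9 tested, 3 rose and 2 fell with BMP2 and 3 rose and 3 fell with E2, and the lower sum with E2 went with Kitl, which had a mean of 977.5 CPM with vehicle and 775.7 with E2. The 10 germ cell genes summed to 979.6 to 1034 CPM, 1041 to 1072 and 1061 to 1070 in the same order. Of these genes, 7 rose and 0 fell with BMP2, and 7 rose and 1 fell with E2. All 8 tested surface epithelium and mesothelium genes fell with both treatments, with sums of 624.4 to 648.7 CPM in vehicle, 545.0 to 558.1 in BMP2 and 428.8 to 436.2 in E2 libraries. Stroma genes (10 genes) summed to 1722 to 1756, 1701 to 1710 and 1627 to 1638 CPM, with 5 higher and 4 lower with E2. For 9 pericyte and smooth muscle genes the sums were 451.5 to 466.1, 420.2 to 421.5 and 591.9 to 606.0 CPM, and 1 gene rose and 1 fell with E2. The gene that rose was Myh11, a smooth muscle myosin, with a mean of 59.6 CPM in vehicle and 202.3 in E2 libraries, and the list's median log2 fold change with E2 was 0.032. Acta2, Tagln and Des, which encode contractile and filament proteins, fell with BMP2, and Tagln also with E2. Among 10 endothelial genes, 7 rose and 1 fell with E2, and the sums overlapped (243.4 to 250.1 CPM with vehicle, 246.2 to 257.9 with E2). The gene that fell was Kdr, the most abundant of the list, with a mean of 110.1 CPM in vehicle and 87.9 in E2 libraries. The list's median log2 fold change with E2 was 0.220. Cartilage genes summed to 55.5 to 56.5 CPM with vehicle and 41.0 to 44.5 with E2, where 3 of 6 tested fell. Neuron and glia genes summed to 118.5 to 122.5 CPM with vehicle, 140.3 to 145.4 with BMP2 (1 of 8 tested rose and 1 fell) and 85.1 to 89.5 with E2 (3 of 8 fell). Their median log2 fold change was -0.143 with BMP2 and -0.434 with E2, so most tested genes did not share the higher sum with BMP2. Of 10 macrophage genes, 6 fell with E2 (138.8 to 142.2 CPM in sum with vehicle, 119.5 to 122.9 with E2). Erythroid genes summed to 32.2 to 35.0 CPM with vehicle, 35.3 to 37.5 with BMP2 (2 of 7 rose and 1 fell) and 44.5 to 48.6 with E2 (4 of 7 rose). The 9 mesonephric genes summed to 162.5 to 168.9, 159.4 to 163.8 and 144.6 to 153.4 CPM, and 2 of 7 tested fell with each treatment, among them Gata3 (a mean of 15.1 CPM with vehicle, 11.3 with BMP2 and 7.60 with E2). In RNA from whole ovaries, fewer cells of a type and less RNA per cell cannot be told apart, and the part of these cell types in the collagen results was not tested.

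Fibrillar collagens fell with E2 in 5 of 11 genes and rose in 1, while BMP2 raised 2 and lowered 1. Col3a1, which forms the fibrils of soft and distensible tissue, moved in opposite directions with the treatments. The libraries had 1908, 1938 and 1923 CPM of Col3a1 with vehicle, 2046, 2072 and 2029 with BMP2 and 1566, 1537 and 1515 with E2. All BMP2 libraries lay above and all E2 libraries below those with vehicle. Col3a1 was 1.07-fold higher with BMP2 (log2 0.091 ± 0.015, adjusted p = 5.6e-07) and 1.25-fold lower with E2 (log2 -0.32 ± 0.015, adjusted p = 1.9e-43). The gene lies on chromosome 1 from 45311538 to 45349706 of GRCm38, which is mm10.

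The 2 genes of type I collagen, the fibrillar collagen of most connective tissue, did not change by the same size. Vehicle libraries gave 342, 361 and 338 CPM for Col1a1, BMP2 libraries 329.7, 340.3 and 324 and E2 libraries 274, 282 and 262. The E2 libraries were lower than all others, and the BMP2 and vehicle libraries overlapped. Col1a1, the gene of the α1 chain, was 1.27-fold lower with E2 (log2 -0.35 ± 0.023, adjusted p = 4.3e-21). With BMP2 it was 1.05-fold lower (log2 -0.067 ± 0.022, adjusted p = 0.0315), a call that DESeq2 did not make (adjusted p = 0.327) and that was lost without vehicle replicate 2 (0.309), BMP2 replicate 1 (0.121) or BMP2 replicate 3 (0.209). Col1a2 stood at 388, 398 and 386 CPM with vehicle, 391, 403 and 395 with BMP2 and 378, 378 and 369 with E2. For Col1a2, the gene of the α2 chain, the drop with E2 was small at 1.04-fold (log2 -0.059 ± 0.019, adjusted p = 0.0106) and did not pass without vehicle replicate 2 (adjusted p = 0.102) or E2 replicate 3 (0.110), and the difference with BMP2 did not pass (log2 0.02 ± 0.019, adjusted p = 0.564). The ratio of Col1a1 to Col1a2 in CPM per kb was thus 0.801 ± 0.0154 (SD, n = 3) with vehicle, 0.754 ± 0.0123 with BMP2 and 0.656 ± 0.0159 with E2, with no overlap between any groups. The ratio of Col3a1 to Col1a1 was 5.72 to 6.07 with vehicle, 6.49 to 6.68 in BMP2 libraries and 5.81 to 6.16 in E2 libraries, so that it stood apart in the BMP2 libraries only.

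Type V collagen starts the assembly of type I fibrils and limits their width. Its gene Col5a2, which lies 24614 bases from Col3a1 on the opposite strand with the 3' ends facing, rose with BMP2. The libraries had 284, 282 and 279.8 CPM of Col5a2 with vehicle, 304, 309 and 296 with BMP2 and 292, 287 and 282 with E2. The BMP2 libraries were above all with vehicle, at 1.07-fold higher (log2 0.10 ± 0.02, adjusted p = 3.2e-05), whereas with E2 the groups overlapped (log2 0.025 ± 0.021, adjusted p = 0.392). Col5a1 did not pass in either comparison with vehicle (log2 -0.052 ± 0.022, adjusted p = 0.104 for BMP2 and log2 0.04 ± 0.022, adjusted p = 0.165 for E2). The ratio of Col5a1 to Col5a2 was 0.566 ± 0.0134 (SD, n = 3) with vehicle, 0.507 ± 0.00463 with BMP2 and 0.571 ± 0.00709 with E2. Among the minor fibrillar genes, Col27a1 was 1.19-fold lower with E2 (log2 -0.25 ± 0.047, adjusted p = 4.4e-06) and Col11a1, which shares fibrils with type II collagen in cartilage, 1.09-fold lower (log2 -0.12 ± 0.05, adjusted p = 0.0455). The Col11a1 call did not pass with DESeq2 (adjusted p = 0.129) or without vehicle replicate 2 (0.0503), vehicle replicate 3 (0.226), E2 replicate 1 (0.232) or E2 replicate 2 (0.103). Col24a1 was the fibrillar gene that rose with E2. Vehicle libraries gave 3.36, 3.89 and 3.65 CPM for Col24a1, BMP2 libraries 3.92, 3.64 and 4.18 and E2 libraries 5.18, 3.94 and 4.68. The lowest E2 library lay just above the highest with vehicle. Its log2 fold change of 0.34 (adjusted p = 0.0204) did not pass with DESeq2 (0.0885) or without vehicle replicate 1 (0.108), E2 replicate 1 (0.170) or E2 replicate 3 (0.0596). Col11a2 did not pass with either treatment, although it fell with E2 without E2 replicate 1 (adjusted p = 0.0398), and Col2a1 and Col5a3 passed in no comparison.

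**Figure D3:**
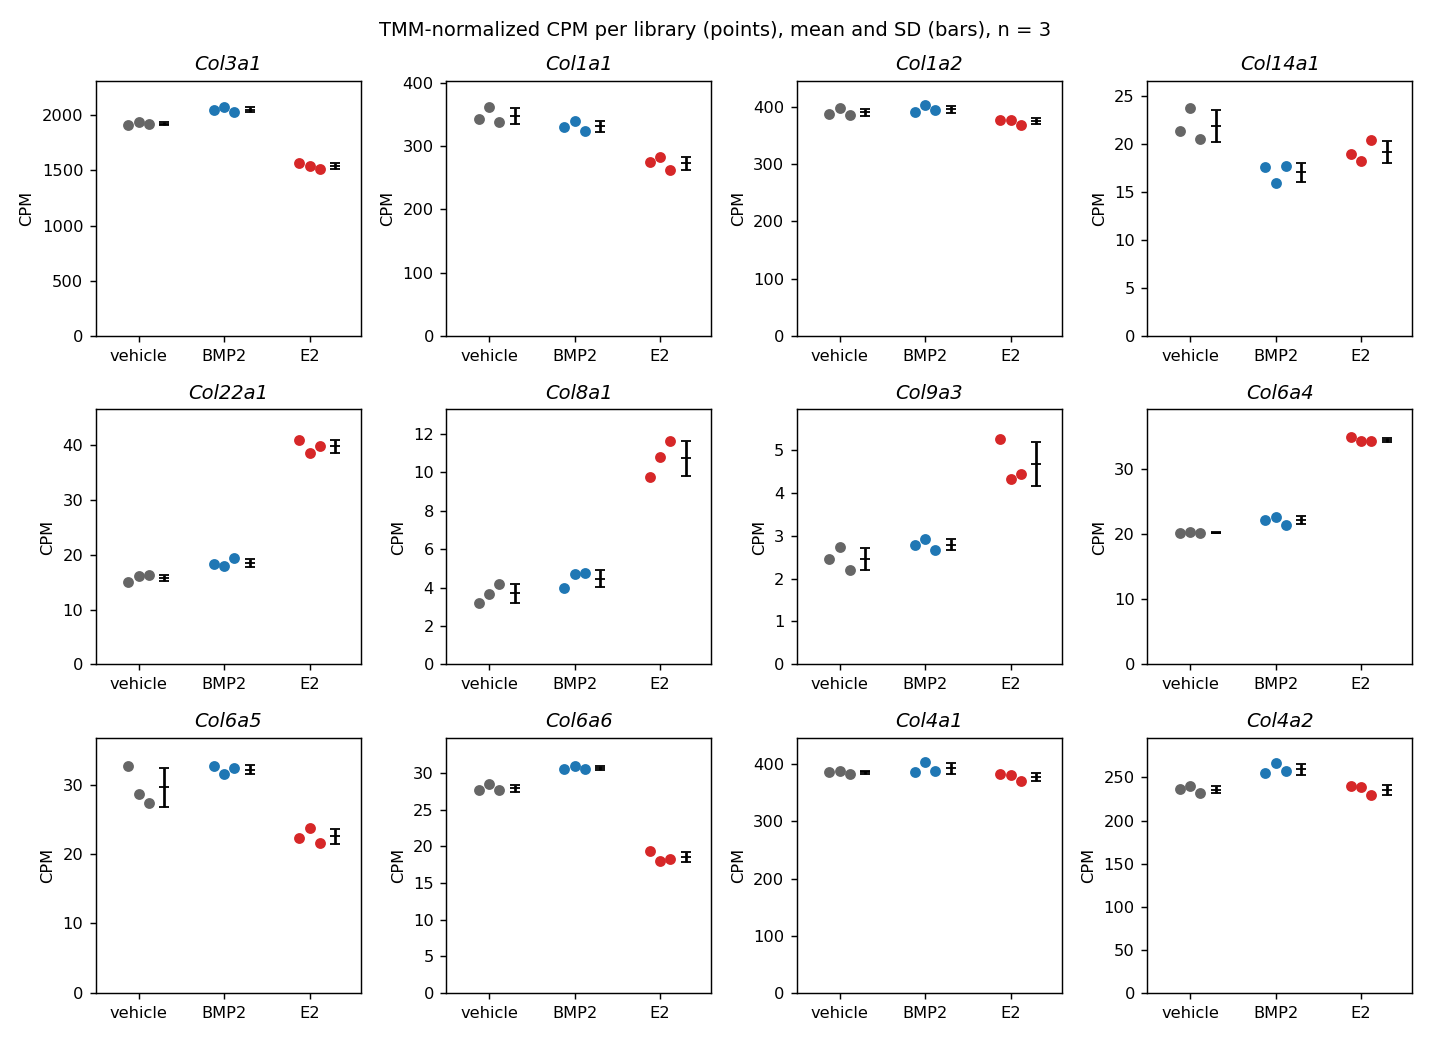
TMM-normalized CPM of 12 collagen genes in each library, with axes that start at 0; points are libraries and bars the mean and SD of 3 libraries. Col3a1 is highest with BMP2 and lowest with E2, Col6a4 and Col6a6 move apart with E2, and Col4a2 but not Col4a1 stands higher with BMP2.

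Among the type IV genes 1 of 6 (16.7%) was called with each treatment. This lay near the 13.7% of all genes tested with BMP2 and below the 32.3% with E2. The calls in type IV collagen were Col4a2, higher with BMP2, and Col4a3, lower with E2. Its genes lie as 3 head-to-head pairs, Col4a1 with Col4a2 on chromosome 8, Col4a3 with Col4a4 on chromosome 1, and Col4a5 with Col4a6 on the X chromosome, with 21, 72 and 1309 bases between the annotated starts. Col4a1 and Col4a2, whose chains form the basement membrane of nearly all tissues, start on opposite strands with 22 bases of overlap, so they share the DNA around their starts. The RefSeq promoter windows of GRCm38.p6, which run from 250 bases before to 50 after each start, are shown for this pair because its members responded unequally. Each is written 5′ to 3′ on its gene's own strand, Col4a1 at chr8:11312777-11313076 on the minus strand and Col4a2 at chr8:11312555-11312854 on the plus strand. Capitals mark the 78 bases that both windows hold (chr8:11312777-11312854), read on opposite strands.
Col4a1: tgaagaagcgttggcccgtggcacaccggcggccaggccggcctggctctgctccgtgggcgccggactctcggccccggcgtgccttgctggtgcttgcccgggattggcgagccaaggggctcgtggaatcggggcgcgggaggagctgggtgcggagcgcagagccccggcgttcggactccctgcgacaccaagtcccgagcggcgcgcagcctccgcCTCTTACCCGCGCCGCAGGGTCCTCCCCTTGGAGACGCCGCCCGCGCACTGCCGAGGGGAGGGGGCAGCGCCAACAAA
Col4a2: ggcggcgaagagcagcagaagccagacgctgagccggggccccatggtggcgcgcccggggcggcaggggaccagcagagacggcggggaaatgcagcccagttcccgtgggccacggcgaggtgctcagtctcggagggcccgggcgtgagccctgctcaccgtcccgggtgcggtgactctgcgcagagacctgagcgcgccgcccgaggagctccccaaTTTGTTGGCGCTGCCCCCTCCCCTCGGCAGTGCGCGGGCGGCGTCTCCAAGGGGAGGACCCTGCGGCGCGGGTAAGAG

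From this shared start, Col4a2 rose with BMP2. Col4a2 stood at 236, 240.0 and 232 CPM with vehicle, 255, 267 and 257 with BMP2 and 239.8, 238 and 229 with E2. All BMP2 libraries were higher than all others, at 1.1-fold above vehicle (log2 0.14 ± 0.021, adjusted p = 9.3e-08), and E2 left a log2 difference near 0 (log2 -0.0011 ± 0.022, adjusted p = 0.978). The libraries had 386, 388 and 383 CPM of Col4a1 with vehicle, 386, 404 and 388 with BMP2 and 384, 381 and 370.1 with E2. For Col4a1 the groups overlapped with BMP2 (log2 0.026 ± 0.019, adjusted p = 0.431, 95% interval -0.012 to 0.064) and with E2 (log2 -0.028 ± 0.019, adjusted p = 0.295). The ratio of Col4a2 to Col4a1 per kb was 0.620 to 0.635 with vehicle, 0.677 to 0.680 in BMP2 libraries and 0.635 to 0.642 in E2 libraries, so the BMP2 libraries stood apart. Reads from the 22 overlapping bases cannot be assigned without strand, and these are 0.333% of the exon bases of Col4a1.

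Col4a5, which pairs with the α3 and α4 chains in kidney and with α6 in other basement membranes, stood at 256.0 to 270.9 CPM with vehicle and was called with neither treatment (log2 0.056 ± 0.021, adjusted p = 0.0589 for BMP2 and log2 -0.008 ± 0.021, adjusted p = 0.819 for E2). Its partner Col4a6 did not pass either (log2 0.11 ± 0.04, adjusted p = 0.0537 and log2 -0.065 ± 0.041, adjusted p = 0.242). With BMP2 both were close to the threshold, and both passed with the replicate number as a block (adjusted p = 0.0307 for Col4a5 and 0.0346 for Col4a6), with a filter at a mean CPM of 1 (0.0476 and 0.0479) and without vehicle replicate 3 (0.0020 and 0.0302). The α3 and α4 genes were low. Vehicle libraries gave 1.90, 2.27 and 2.32 CPM for Col4a3, BMP2 libraries 1.84, 1.88 and 1.83 and E2 libraries 1.39, 1.14 and 1.90. Col4a3 was 1.46-fold lower with E2 (log2 -0.55 ± 0.18, adjusted p = 0.0135), a call not made by DESeq2 (adjusted p = 0.0646) and lost without vehicle replicate 3 (0.0566), E2 replicate 1 (0.0516) or E2 replicate 2 (0.141). Col4a4 did not pass with E2 (log2 -0.32 ± 0.15, adjusted p = 0.0905), although it did without vehicle replicate 3 (adjusted p = 0.0279) or E2 replicate 1 (0.0368).

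Of the collagens found beside basement membranes, all 3 changed with E2 and none passed with BMP2. With BMP2, Col18a1 did pass without vehicle replicate 2 (adjusted p = 0.0368), and Col7a1 without vehicle replicate 1 (0.0363) or BMP2 replicate 3 (0.0375). Col18a1, whose cleaved end is endostatin, an inhibitor of vessel growth, fell 1.09-fold (log2 -0.12 ± 0.025, adjusted p = 5.9e-05), from 134.1 to 141.3 CPM with vehicle to 125.2 to 128.9 CPM with E2. Col7a1, which forms the fibrils that anchor the epidermis, rose 1.26-fold (log2 0.33 ± 0.08, adjusted p = 4.2e-04), from 8.10 to 9.59 to 10.8 to 11.3 CPM. Col15a1, a relative of Col18a1, was 1.11-fold higher (log2 0.15 ± 0.06, adjusted p = 0.0399), but not by DESeq2 (adjusted p = 0.122) nor without vehicle replicate 1 (0.129), vehicle replicate 2 (0.0778) or E2 replicate 3 (0.375). So the close relatives Col15a1 and Col18a1 had log2 fold changes of opposite sign with E2.

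Of the 3 short-chain network genes, only Col8a1 was called with E2, or 33.3%, near the 32.3% of all genes tested. Col8a1 had the highest fold change of all collagens called with E2. Vehicle libraries gave 3.217, 3.663 and 4.203 CPM for Col8a1, BMP2 libraries 3.983, 4.682 and 4.735 and E2 libraries 9.763, 10.76 and 11.6. Every E2 library was far above every BMP2 and vehicle library. Col8a1, a collagen of vessel walls and of the corneal Descemet membrane, was 2.9-fold higher with E2 (log2 1.54 ± 0.10, adjusted p = 9.8e-30). With BMP2 the groups overlapped and the gene did not pass (log2 0.28 ± 0.12, adjusted p = 0.101), although it did without vehicle replicate 3 (adjusted p = 0.0354). Col8a2 stood at 24.9, 25.2 and 25.7 CPM with vehicle, 27.9, 28.0 and 26.2 with BMP2 and 24.7, 24.2 and 22.6 with E2. Its partner chain Col8a2 did not pass with E2 (log2 -0.086 ± 0.051, adjusted p = 0.204) and lay on the other side of 0. The ratio of Col8a1 to Col8a2 per kb was 0.124 ± 0.0146 (SD, n = 3) with vehicle, 0.139 ± 0.0163 with BMP2 and 0.383 ± 0.0508 with E2. Col10a1 passed in no comparison. Beside the rise of Col8a1 with E2, 7 of 10 endothelial genes rose and 1 fell, with a median log2 fold change of 0.220. Their sums overlapped, since the gene that fell, Kdr, was the most abundant of them. Of the 9 pericyte and smooth muscle genes, 1 rose (Myh11), 1 fell (Tagln) and 7 did not pass with E2. The part of these cells in the rise of Col8a1 was not tested.

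Type VI genes were called in 4 of 6 cases with BMP2 and in 5 of 6 with E2. The chains α1 to α3, which assemble into the standard type VI monomer, fell slightly with BMP2, by 1.05-fold for Col6a1 (log2 -0.068 ± 0.019, adjusted p = 0.00853), 1.05-fold for Col6a2 (log2 -0.066 ± 0.02, adjusted p = 0.0156) and 1.06-fold for Col6a3 (log2 -0.086 ± 0.025, adjusted p = 0.00797). The libraries had 384, 392 and 373 CPM of Col6a1 with vehicle, 365, 368 and 364 with BMP2 and 405, 394 and 389 with E2. In each of the 3 genes the BMP2 libraries lay below all with vehicle. The Col6a1 call was lost without vehicle replicate 2 (adjusted p = 0.116), that of Col6a3 without vehicle replicate 1 (0.0663), and that of Col6a2 with DESeq2 (0.0645) and without vehicle replicate 2 (0.259), BMP2 replicate 1 (0.111) or BMP2 replicate 3 (0.110). With E2, Col6a3 rose. Vehicle libraries gave 139, 137 and 136 CPM for Col6a3, BMP2 libraries 128, 129.8 and 129.7 and E2 libraries 159.7, 154 and 158. The E2 libraries were above all others, at 1.14-fold over vehicle (log2 0.19 ± 0.024, adjusted p = 9.6e-12). Col6a1 was only 1.03-fold higher with E2 and overlapped with vehicle (log2 0.048 ± 0.019, adjusted p = 0.0477). Its call did not pass with DESeq2 (adjusted p = 0.0723), and leaving out vehicle replicate 1 (0.0926), vehicle replicate 3 (0.262), E2 replicate 1 (0.266) or E2 replicate 2 (0.0715) also ended it. Col6a2 did not pass (log2 -0.032 ± 0.02, adjusted p = 0.246).

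The genes Col6a4, Col6a5 and Col6a6 encode long chains related to α3 and lie in a row on the minus strand of chromosome 9, Col6a6 from 105687809 to 105828160, Col6a5 from 105856078 to 105960643 and Col6a4 from 105989454 to 106096783. With E2, Col6a4 rose while its neighbours fell. Col6a4 stood at 20.2, 20.3 and 20.1 CPM with vehicle, 22.2, 22.7 and 21.5 with BMP2 and 34.8, 34.3 and 34.3 with E2. The libraries had 32.7, 28.6 and 27.4 CPM of Col6a5 with vehicle, 32.7, 31.5 and 32.3 with BMP2 and 22.3, 23.8 and 21.6 with E2. Vehicle libraries gave 27.7, 28.4 and 27.6 CPM for Col6a6, BMP2 libraries 30.5, 30.9 and 30.5 and E2 libraries 19.3, 18.0 and 18.2. For all 3 genes the E2 libraries were separate from the other 6. Col6a4 was 1.71-fold higher (log2 0.77 ± 0.05, adjusted p = 3.6e-30), Col6a5 1.31-fold lower (log2 -0.39 ± 0.052, adjusted p = 1.0e-10) and Col6a6 1.51-fold lower (log2 -0.59 ± 0.052, adjusted p = 7.9e-20). The ratio of Col6a4 to Col6a6 per kb thus went from 0.900 ± 0.0125 (SD, n = 3) with vehicle to 2.32 ± 0.0683 with E2, and stayed within 0.874 to 0.910 with BMP2. The ratio of Col6a5 to Col6a6 was 0.976 to 1.16 with vehicle and 1.13 to 1.30 with E2, and these groups overlapped. With BMP2, Col6a6 was called 1.1-fold higher (log2 0.14 ± 0.047, adjusted p = 0.0375), but not by DESeq2 (adjusted p = 0.122), and the call was lost without vehicle replicate 1 (0.116), vehicle replicate 3 (0.0922), BMP2 replicate 1 (0.0799), BMP2 replicate 2 (0.102) or BMP2 replicate 3 (0.0792). Col6a4 (log2 0.13 ± 0.053, adjusted p = 0.0864) and Col6a5 (log2 0.12 ± 0.048, adjusted p = 0.0868) did not pass with BMP2, but Col6a5 did without vehicle replicate 1 (adjusted p = 0.00575). The counting could split reads of these related genes, and 3.92% of the exon bases of Col6a4 are overlapped by genes on the opposite strand.

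The promoter windows of these neighbours are shown because genes in a row went in opposite directions with E2, together with that of Col8a1, which rose most. They are the RefSeq windows of GRCm38.p6, all on the minus strand, at chr9:106096642-106096941, chr9:105960594-105960893, chr9:105828036-105828335 and chr16:57754688-57754987 in the order printed. Capitals mark the core letters of the oestrogen response element, GGTCA or on the other strand TGACC.
Col6a4: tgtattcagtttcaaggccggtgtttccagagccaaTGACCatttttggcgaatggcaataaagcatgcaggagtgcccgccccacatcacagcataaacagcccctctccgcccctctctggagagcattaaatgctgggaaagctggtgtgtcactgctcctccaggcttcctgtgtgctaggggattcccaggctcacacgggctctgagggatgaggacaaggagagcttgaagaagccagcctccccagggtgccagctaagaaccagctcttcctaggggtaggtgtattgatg
Col6a5: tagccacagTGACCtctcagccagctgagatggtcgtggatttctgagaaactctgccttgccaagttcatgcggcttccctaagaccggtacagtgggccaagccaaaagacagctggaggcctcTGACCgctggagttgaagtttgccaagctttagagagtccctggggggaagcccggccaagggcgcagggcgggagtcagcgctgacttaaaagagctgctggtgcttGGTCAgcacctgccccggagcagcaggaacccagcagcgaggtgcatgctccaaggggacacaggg
Col6a6: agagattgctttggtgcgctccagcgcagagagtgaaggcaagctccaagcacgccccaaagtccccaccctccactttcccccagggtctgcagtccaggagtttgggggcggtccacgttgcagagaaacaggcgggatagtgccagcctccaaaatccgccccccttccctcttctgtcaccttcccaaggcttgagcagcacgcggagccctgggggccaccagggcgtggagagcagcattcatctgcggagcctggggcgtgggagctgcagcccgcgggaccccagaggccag
Col8a1: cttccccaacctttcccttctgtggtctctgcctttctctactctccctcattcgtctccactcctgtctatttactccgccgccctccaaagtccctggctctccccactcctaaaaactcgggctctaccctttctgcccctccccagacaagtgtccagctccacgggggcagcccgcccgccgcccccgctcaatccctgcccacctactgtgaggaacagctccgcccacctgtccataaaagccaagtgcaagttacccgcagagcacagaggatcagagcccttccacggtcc

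These core letters occurred 1 time in the window of Col6a4, 3 times in that of Col6a5, and 0 times in those of Col6a6 and Col8a1. It was in 14 of 38 windows of collagen genes and in 40.5% of all 32851 windows of 300 bases in the table. The full element, in which GGTCA and TGACC stand 3 bases apart, was in 0 of the 38 collagen windows and in 0.07% of all windows. Windows were found for 35 of the 44 genes, and those of Col12a1, Col14a1, Col1a1, Col22a1, Col26a1, Col2a1, Col4a3, Col5a2 and Col9a3 were not matched. GGCGCC, a GC-rich motif bound by SMAD1 and SMAD5, which reads the same on both strands, was in 5 of 38 collagen windows and in 11.9% of all, and 1 time in that of Col4a1 and 0 times in that of Col4a2, outside the shared bases. A match is only a match of letters.

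**Figure D4:**
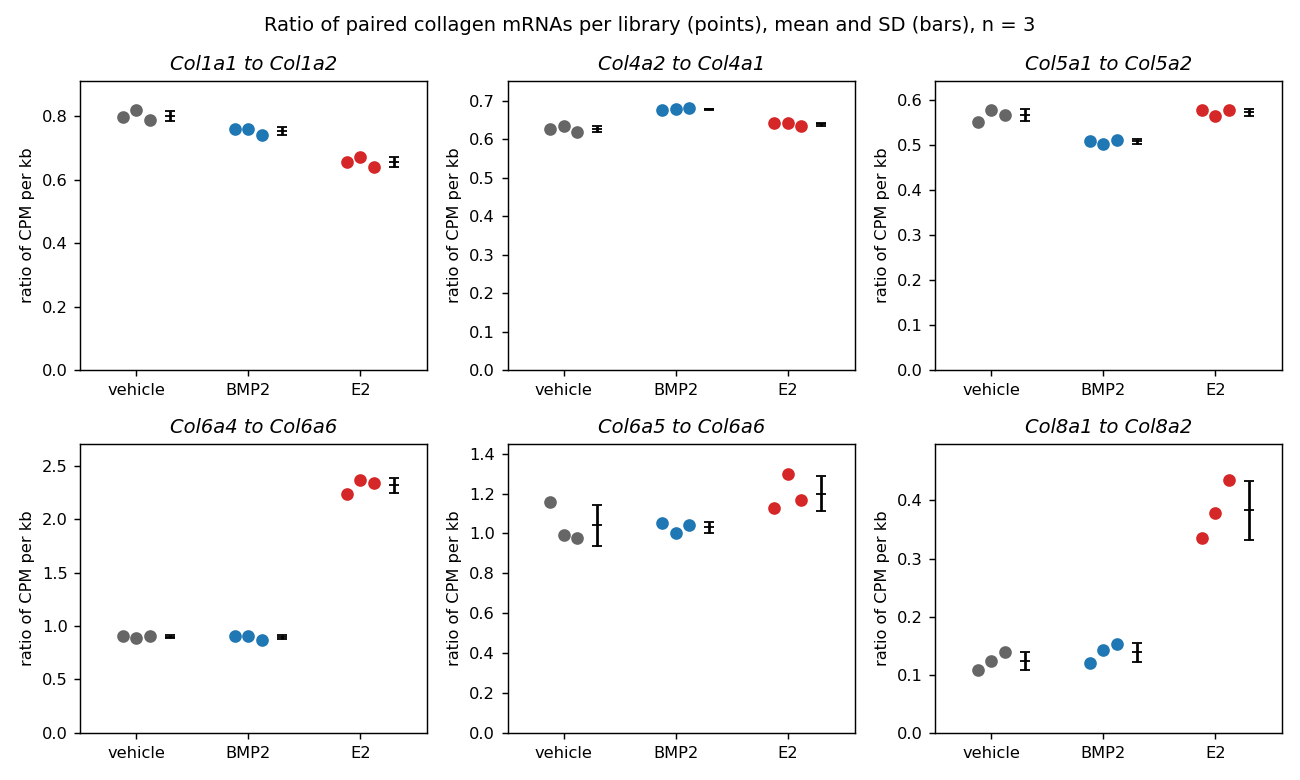
Ratio of the levels of 2 collagen mRNAs, in CPM per kilobase of exon, in each library, with axes that start at 0; points are libraries and bars the mean and SD of 3 libraries. The ratio of Col1a1 to Col1a2 is lowest with E2, those of Col4a2 to Col4a1 and Col5a1 to Col5a2 stand apart with BMP2, and those of Col6a4 to Col6a6 and Col8a1 to Col8a2 rise with E2.

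The FACITs held both a strong rise with E2 and the largest drop called with BMP2. Col22a1, found at tissue junctions such as that between muscle and tendon, was 2.52-fold higher with E2 (log2 1.33 ± 0.052, adjusted p = 2.1e-52). Col22a1 stood at 15.1, 16.1 and 16.2 CPM with vehicle, 18.2, 18.0 and 19.4 with BMP2 and 41.0, 38.6 and 39.8 with E2. The 3 groups did not overlap, with E2 far above the others, and Col22a1 was also 1.18-fold higher with BMP2 (log2 0.23 ± 0.058, adjusted p = 0.00167). The gene is on chromosome 15 from 71795795 to 72034227 on the minus strand. Col14a1, which binds the surface of type I fibrils, fell with both treatments. The libraries had 21.4, 23.7 and 20.6 CPM of Col14a1 with vehicle, 17.6, 15.9 and 17.7 with BMP2 and 18.9, 18.2 and 20.4 with E2. BMP2 gave the lower levels, 1.28-fold below vehicle (log2 -0.36 ± 0.058, adjusted p = 5.0e-07), and E2 libraries were 1.14-fold below (log2 -0.19 ± 0.058, adjusted p = 0.00644), lost without vehicle replicate 2 (adjusted p = 0.129) or E2 replicate 2 (0.0736). Col12a1, a FACIT of similar build and the most abundant of the class by counts, also fell with both, by 1.05-fold with BMP2 (log2 -0.068 ± 0.02, adjusted p = 0.00964) and 1.08-fold with E2 (log2 -0.11 ± 0.02, adjusted p = 5.1e-07). Without BMP2 replicate 2 the former gave adjusted p = 0.0610.

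Type IX collagen coats the fibrils of cartilage, and its 3 genes differed in level. Vehicle libraries gave 40.9, 42.1 and 39.8 CPM for Col9a2, BMP2 libraries 44.3, 45.7 and 45.6 and E2 libraries 49.0, 50.9 and 47.3. Col9a2 rose 1.1-fold with BMP2 (log2 0.14 ± 0.039, adjusted p = 0.00524) and 1.2-fold with E2 (log2 0.26 ± 0.039, adjusted p = 1.2e-08), and its groups did not overlap. Col9a3 stood at 2.46, 2.72 and 2.19 CPM with vehicle, 2.78, 2.92 and 2.67 with BMP2 and 5.24, 4.32 and 4.42 with E2. Col9a3, at lower levels, was 1.9-fold higher with E2 (log2 0.92 ± 0.13, adjusted p = 2.0e-09) and did not pass with BMP2 (log2 0.19 ± 0.14, adjusted p = 0.456). The gene Tcfl5 on the other strand covers 7.68% of its exon bases. Col9a1 had counts of 6 to 19 per library and passed in no comparison, nor did Col16a1, Col19a1 and Col20a1. For Col9a1 with E2, the 95% interval of -0.52 to 1.32 log2 held the changes of Col9a2 and Col9a3. Beside the rise of Col9a2 and Col9a3 with E2, the cartilage markers were lower in sum, as given above. The part of cartilage cells in this rise was not tested.

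Of the transmembrane collagens, none passed with BMP2, and with E2 1 rose, 2 fell and 1 did not pass. Col25a1, a collagen of neurons needed for motor innervation, was 1.43-fold higher with E2 (log2 0.51 ± 0.065, adjusted p = 1.7e-11). The libraries had 12.2, 14.7 and 14.3 CPM of Col25a1 with vehicle, 14.6, 12.7 and 15.1 with BMP2 and 20.3, 19.1 and 19.3 with E2. All E2 libraries were above all others. The neuron and glia markers were lower in sum with E2, with 3 of 8 tested called lower. The part of these cells in the rise of Col25a1 was not tested. Col13a1, a collagen of the neuromuscular junction, was 1.31-fold lower (log2 -0.39 ± 0.11, adjusted p = 0.00303), with adjusted p = 0.0784 without E2 replicate 3, and Col23a1 1.18-fold lower (log2 -0.23 ± 0.058, adjusted p = 5.5e-04). Col17a1, a hemidesmosome collagen of epithelia, did not pass. Vehicle libraries gave 36.7, 37.7 and 35.4 CPM for Col26a1, BMP2 libraries 36.4, 35.0 and 34.6 and E2 libraries 27.1, 25.9 and 26.2. Col26a1, a collagen known from testis and ovary, was 1.39-fold lower with E2 (log2 -0.47 ± 0.046, adjusted p = 4.5e-17) and overlapped between BMP2 and vehicle (log2 -0.049 ± 0.043, adjusted p = 0.521). Col28a1 passed in no comparison.

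Set directly against each other, BMP2 and E2 differed in 29 of 44 collagen genes, 18 higher and 11 lower with BMP2, or 65.9% against 28.2% of all genes tested. Of these 29 calls, 20 held in every alternative that tested for any change at an adjusted p under 0.05. Those lost in at least 1 were Col11a1 and Col11a2 (fibrillar), Col14a1 and Col9a2 (FACITs), Col15a1, Col23a1, Col4a1, Col4a5 and Col4a6. Fibrillar genes were mostly higher with BMP2 (7 higher and 1 lower of 11), with Col3a1 at 1.33-fold (log2 0.41 ± 0.015, adjusted p = 1.8e-55) and Col1a1 at 1.21-fold (log2 0.28 ± 0.023, adjusted p = 8.6e-17). Of the 6 type IV genes, 4 were higher with BMP2 and 0 lower, among them Col4a2 (log2 0.14 ± 0.021, adjusted p = 1.9e-08) and Col4a6 (log2 0.17 ± 0.041, adjusted p = 3.0e-04), the latter with adjusted p = 0.0587 without E2 replicate 3. The Col4a1 call (log2 0.054 ± 0.019, adjusted p = 0.0261) was lost with DESeq2 (adjusted p = 0.0505) and without BMP2 replicate 2 (0.292) or E2 replicate 3 (0.233), and that of Col4a5 (log2 0.064 ± 0.021, adjusted p = 0.0131) without BMP2 replicate 1 (0.0747), BMP2 replicate 2 (0.0556) or E2 replicate 3 (0.0996). In type VI, Col6a5 (0.51) and Col6a6 (0.73) were higher and Col6a1 (-0.12), Col6a3 (-0.28) and Col6a4 (-0.64) lower with BMP2, by log2 fold change. No FACIT was higher and 4 were lower, including Col22a1 at 2.14-fold (log2 -1.10 ± 0.05, adjusted p = 4.0e-45). Col8a1 was 2.4-fold lower (log2 -1.26 ± 0.096, adjusted p = 1.6e-24) and its partner Col8a2 1.15-fold higher (log2 0.20 ± 0.05, adjusted p = 8.0e-04) with BMP2 than with E2. Across the comparisons with vehicle, Col22a1 and Col9a2 rose with both, Col12a1, Col14a1 and Col1a1 fell with both, Col3a1 and Col6a6 rose with BMP2 and fell with E2, and Col6a1 and Col6a3 did the reverse. Of these genes, Col22a1, Col9a2 and Col3a1 kept both calls in every alternative that tested for any change at 0.05. The BMP2 calls of Col12a1, Col1a1, Col6a1, Col6a3 and Col6a6 and the E2 calls of Col14a1 and Col6a1 were each lost in at least 1.

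Genes that make, process, bind or break down collagen are given as lists beside the chains, and their counts are to be read against the 13.7% of all genes called with BMP2 and the 32.3% called with E2. Several lists lay near these shares: with BMP2, 10.5% of chain modification genes and 14.3% of cross-linking genes were called, and with E2 36.4% of secretion genes. For the 19 genes of chain modification and folding, which hydroxylate, glycosylate and fold chains in the endoplasmic reticulum, 2 rose and 0 fell with BMP2, and 7 rose and 3 fell with E2. Glt25d2, which adds galactose to hydroxylysine of collagen, was 1.98-fold higher with E2 (log2 0.99 ± 0.055, adjusted p = 6.7e-36) and Fkbp14, a prolyl isomerase, 1.21-fold higher, while its relative Fkbp10 was 1.16-fold lower. With BMP2, Plod3 (log2 0.093 ± 0.034, adjusted p = 0.0492) and P4ha1 (log2 0.095 ± 0.035, adjusted p = 0.0498), a lysyl and a prolyl hydroxylase, rose slightly, and the P4ha1 libraries overlapped with vehicle. P4ha1 rose with E2 too (log2 0.12 ± 0.035, adjusted p = 0.00418). Among 11 tested genes of procollagen secretion, 1 rose and 4 fell with BMP2, and 2 rose and 2 fell with E2. Creb3l1, a transcription factor of secretory and collagen genes, fell 1.13-fold with BMP2 and 1.36-fold with E2 (log2 -0.45 ± 0.048, adjusted p = 5.2e-15), and Sec24d, a coat protein of the vesicles that carry procollagen, 1.09-fold and 1.27-fold. Of 6 tested genes of propeptide removal, 1 rose and 2 fell with BMP2 and 0 rose and 3 fell with E2, with Adamts2, which trims procollagen at the N-terminal end, lower in both (-0.12 and -0.15 log2). In BMP2 the riser was Bmp1, the procollagen C-proteinase (log2 0.074 ± 0.022, adjusted p = 0.0121).

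Of 7 cross-linking genes, 0 rose and 1 fell with BMP2, and 1 rose and 3 fell with E2. Loxl1, a lysyl oxidase linked to elastic fibres, was 1.45-fold lower with E2 (log2 -0.54 ± 0.041, adjusted p = 5.4e-24), and Loxl2 was lower with both (-0.20 with BMP2 and -0.11 with E2, log2). Tgm2 was 1.24-fold lower with E2 (log2 -0.31 ± 0.0265, adjusted p = 2.3e-20) and did not pass with BMP2 (adjusted p = 0.765). Of 15 genes of collagen breakdown and its inhibitors, 2 rose and 2 fell with BMP2, and 2 rose and 6 fell with E2. Mmp14 (log2 0.14 ± 0.024, adjusted p = 9.2e-07), a membrane-bound collagenase, and Mmp2 (log2 0.11 ± 0.022, adjusted p = 3.9e-05), which it activates, rose with BMP2, while with E2 Mmp14 fell (log2 -0.14 ± 0.024, adjusted p = 7.6e-07) and Mmp2 did not pass (log2 0.012 ± 0.022, adjusted p = 0.733). The inhibitor Timp1 fell with both, BMP2 (log2 -0.21 ± 0.04, adjusted p = 1.9e-05) and E2 (log2 -0.21 ± 0.04, adjusted p = 6.9e-06). With E2, Mrc2, a receptor that takes up collagen for degradation, rose 1.84-fold (log2 0.88 ± 0.03, adjusted p = 3.4e-58), and Timp2 was 1.27-fold lower. Mmp15 was 1.26-fold higher with E2 (log2 0.33 ± 0.022, adjusted p = 1.9e-28) and did not pass with BMP2 (adjusted p = 0.212). Among 10 collagen receptors, 3 rose and 0 fell with BMP2 and 4 rose and 1 fell with E2. The receptor gene that fell with E2 was Gpr56, at 1.16-fold lower (log2 -0.22 ± 0.023, adjusted p = 2.8e-15). The integrin subunit Itga2 was 1.56-fold higher with E2 (log2 0.64 ± 0.11, adjusted p = 3.6e-07), and did not pass with BMP2 (log2 0.18 ± 0.11, adjusted p = 0.337). Itga10 was higher with both treatments, 1.53-fold with BMP2 (log2 0.61 ± 0.15, adjusted p = 0.00118) and 1.48-fold with E2 (log2 0.57 ± 0.15, adjusted p = 0.00138), and so was their shared partner Itgb1 (0.063 and 0.12 log2).

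Of 20 fibril-binding proteoglycans and glycoproteins, 3 rose and 3 fell with BMP2, and 8 rose and 8 fell with E2. The thrombospondin genes Thbs1 and Thbs2 rose with BMP2 (log2 0.22 ± 0.03, adjusted p = 1.9e-09 and log2 0.26 ± 0.02, adjusted p = 1.3e-22). With E2, Thbs1 was 1.51-fold higher and Thbs2 1.2-fold lower (log2 -0.27 ± 0.021, adjusted p = 5.7e-24). Tgfbi, which binds collagen and integrins, was 1.5-fold lower with E2 (log2 -0.58 ± 0.024, adjusted p = 1.5e-50), and Sparc, a collagen-binding protein, 1.16-fold lower (log2 -0.22 ± 0.017, adjusted p = 2.6e-24). Both also fell with BMP2 (-0.065 for Tgfbi and -0.072 for Sparc, log2). Of 21 basement membrane partners, 3 rose and 3 fell with BMP2, and 6 rose and 9 fell with E2. Lama3, a laminin chain of epithelial basement membranes, was 2.1-fold lower with E2 (22.1 ± 1.00 against 46.3 ± 1.68 CPM, mean ± SD, n = 3, log2 -1.07 ± 0.045, adjusted p = 2.8e-48), while Papln (1.67-fold) and Smoc1 (1.53-fold), both secreted matrix proteins, were higher. The drop of Lama3 stood beside the drop of all 8 surface epithelium genes with E2, and the part of these cells in it was not tested. Lama5, another laminin chain, fell with BMP2 (log2 -0.18 ± 0.03, adjusted p = 6.6e-07) and with E2 (log2 -0.12 ± 0.03, adjusted p = 0.00105). Agrn, a heparan sulphate proteoglycan, rose with BMP2 (log2 0.12 ± 0.02, adjusted p = 2.1e-06) and fell with E2 (log2 -0.054 ± 0.02, adjusted p = 0.0298).

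**Figure D5:**
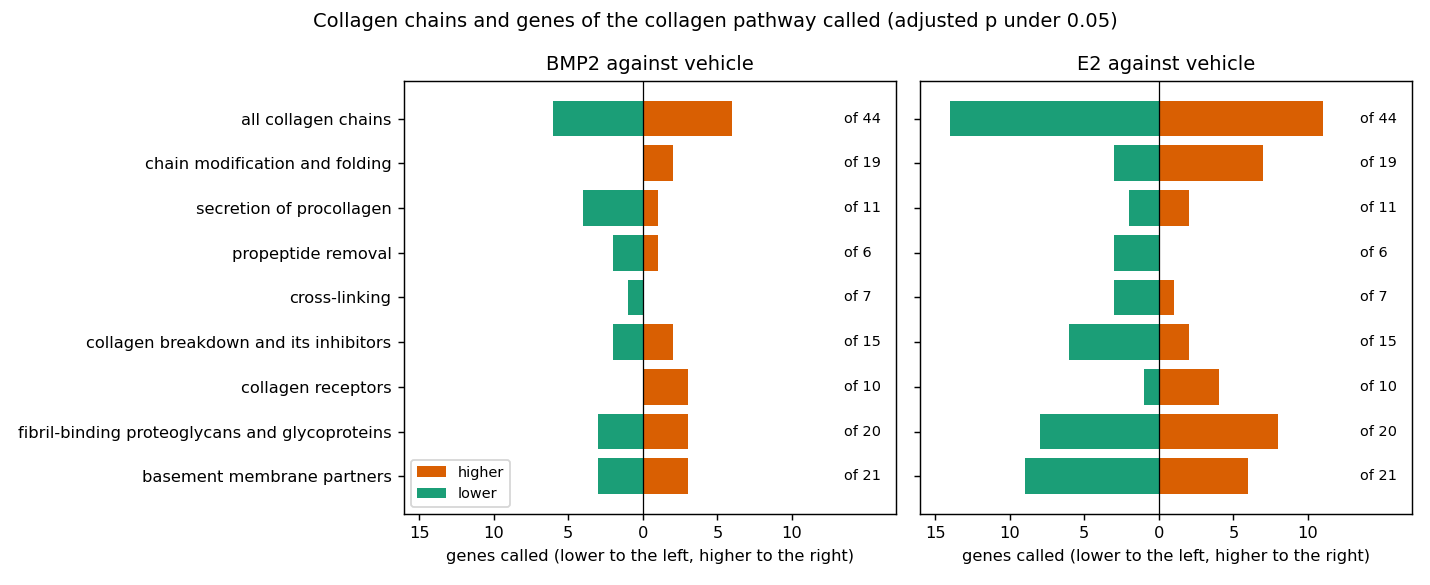
Number of genes called higher (to the right) and lower (to the left) at an adjusted p under 0.05 among the collagen chains and 8 lists of collagen pathway genes, for BMP2 (left panel) and E2 (right panel) against vehicle, with the number tested beside each bar. With E2 the collagen chains have 11 genes to the right and 14 to the left, and most lists hold genes in both directions.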

How the data were processed

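Read counts per gene were deposited by the authors as 1 table per library, and the submitters' processing notes name TopHat2, HTSeq, DESeq2 and mm10. Libraries were made with a TruSeq v2 kit, per the labels' protocols, which does not mark strand, and which annotation and strand setting were used for counting is not given in the sources used here. Reads given to no gene (38.2% to 39.7% of a library's total) were left out. Counts were fitted with edgeR 4.0.16 in R 4.3.3 over all 9 libraries (TMM factors, filterByExpr, robust quasi-likelihood F test, 1 mean per group), and p-values were adjusted by Benjamini-Hochberg over 16360 genes, with calls at 0.05. Standard errors were taken from the size of each log2 fold change over the root of its F statistic. Exon lengths and positions came from the GENCODE vM21 basic annotation of GRCm38, and promoter windows from RefSeq. The fit was tested on simulated data. Alternatives were DESeq2 1.42.0, median-ratio size factors, other filters, only the groups compared, a replicate block, a stricter threshold, a test against 1.2-fold and leaving out each library. The genes named are the chains of types I, III, IV and VI (α1 to α3). Called chains with a mean of at least 1 CPM followed by size of change, up to 5 per class. Pathway genes came from the 3 called genes with the smallest p per list and comparison, and not all of those are named. Others were named after their values were seen. The members and lists were chosen with earlier results of these data known. Between 30418674 and 34320077 counts per library limit precision for genes with few counts, such as Col10a1.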

Additional observations from a re-analysis of the deposited data

How the results depend on the processing

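Counts of called collagen genes kept within 1.5 times of those reported, except in the test against a 1.2-fold change. The count lower with BMP2 also moved further without vehicle replicate 2. Tested against a 1.2-fold change with edgeR's glmTreat, 0 rose and 0 fell with BMP2 (1 and 1 at an unadjusted p under 0.05). With E2, 5 rose and 5 fell, and 5 were higher and 5 lower with BMP2 than with E2. Over all 16360 genes, this test called 43 higher and 27 lower with BMP2 and 531 and 346 with E2. For BMP2 against E2 it called 296 higher and 488 lower. DESeq2, testing for any change, called 5 higher and 4 lower collagen genes with BMP2. Leaving out 1 library gave 5 to 8 higher and 3 to 6 lower for BMP2, 8 to 11 and 11 to 14 for E2, and 15 to 18 and 9 to 11 for BMP2 against E2; the 3 came without vehicle replicate 2. The log2 ratio of the summed collagen share was 0.0425 for BMP2, -0.119 for E2 and 0.161 for BMP2 against E2, and without Col3a1 it was 0.0146, -0.0303 and 0.0448. Replicate numbers did not pair the libraries: deviations of same-numbered libraries correlated at -0.0311 to 0.0271, and with the number as a block 8 rose and 6 fell with BMP2, 11 and 14 with E2, and 19 and 11 were higher and lower in BMP2 against E2. No called value changed sign. Values near 0 that were not called did: Col4a2 with E2 (-0.0011) was 0.0002 with DESeq2, 0.0007 with median-ratio size factors, 0.0008 with a mean CPM of at least 1 and -0.0132 to 0.0209 leaving out 1 library. Leaving out 1 library also gave -0.0148 to 0.0185 for Col15a1, -0.0347 to 0.115 for Col25a1 and -0.175 to 0.0523 for Col4a4 with BMP2, and -0.0229 to 0.0199 for Col4a5 and -0.107 to 0.0024 for Col4a6 with E2. The causes were not tested.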
